A study of Mus musculus with 6 samples.

Results

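The genes described here encode 5 vascular ligands or secreted factors of the apelin, VEGF and angiopoietin systems, Apln, Vegfa, Vegfb, Angpt1 and Angpt2, the receptors Aplnr, Kdr, Flt1 and Tek, and the secreted endothelial proteoglycan Esm1. They are 10 of the 54532 genes in the count table, found by their gene names, and all 10 passed the filter on low counts. The list was chosen by vascular function with the genotype comparison of these hearts already known, in which Apln was among the genes with the largest falls. The genotype values below are therefore a description of these genes, and the adjusted p-values, which come from a fit over all genes, are no independent support for the choice.

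RNA was sequenced from whole hearts of mice aged 3 months on a C57BL/6 background. For the sequencing, the paper gives the sensitive mice as male and the resistant mice as age-matched. Its methods name sensitive males and control littermates for the study as a whole. The resistant group held 3 α1r/rα2s/s hearts, with the rodent Na/K-ATPase α1 that has a low affinity for cardiotonic steroids (CTS). The sensitive group held 3 α1s/sα2s/s hearts, with an engineered α1 of high CTS affinity, and both genotypes carried the CTS-sensitive α2. The α1 change was a knock-in carried by the whole mouse, no group received a steroid by the labels, and the α1 substitutions cannot be read from counts per gene. The hearts are called resistant 1 to 3 and sensitive 1 to 3.

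Apelin is a small secreted peptide that signals through its G protein-coupled receptor APJ, the product of Aplnr, on endothelial and other cardiac cells, and it acts on vessel growth, vascular tone and contractility. VEGF-A drives endothelial growth through VEGF receptor 2, the product of Kdr, whereas VEGF receptor 1, the product of Flt1, binds VEGF-A tightly with weak signaling and is the receptor for VEGF-B. Angiopoietin 1 activates the endothelial receptor Tie2, the product of Tek, and stabilizes vessels, while angiopoietin 2 can oppose it during vessel remodeling.

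The total count ranged from 19309312 to 20470065 reads on genes per heart, and 14866 genes were tested. No library was a copy of another, as the chi-square per gene between hearts of one genotype was 6.85 to 13.1. The mitochondrial share of counts was 23.4 to 24.4% in resistant and 25 to 26.0% in sensitive hearts, and the number of genes detected was 22139 to 22515 and 21234 to 22039, neither overlapping. These library differences go with genotype and cannot be told apart from it. In a fit of 14820 genes without mitochondrial and globin genes, Apln and Angpt1 passed, with log2 fold changes of -1.10 and 0.57 (edgeR adjusted p = 0.000447 and 0.0248). That fit leaves out few genes and does not address the other library differences. Endothelial identity was present in every heart, as all 20 pan-endothelial marker genes were detected and tested. Pecam1, an endothelial adhesion molecule, had 173 to 202 CPM (a gene's counts scaled to the library size, with TMM normalization) in resistant and 169 to 199 CPM in sensitive hearts. The cardiomyocyte myosin gene Myh6 had 20900 to 28200 and 23800 to 25500 CPM.

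The sequences shown are the end of the apelin coding region, since Apln carried the largest difference, and the 250 bases upstream of the transcription start of Apln, of Kdr and of Flt1, since both VEGF receptor genes are compared within a heart. Apelin-13, the shortest of the main active peptides, is encoded by the last 39 coding bases, in capitals in the first sequence, which lie in exon 2 of 3 of the Apln transcript annotated by GENCODE M21. In the upstream sequences, taken from RefSeq on GRCm38.p6, capitals mark GGAA and its reverse complement TTCC, the core letters bound by ETS factors, which are active in endothelial cells.
Apln coding end, chrX:48028302-48028352, minus strand: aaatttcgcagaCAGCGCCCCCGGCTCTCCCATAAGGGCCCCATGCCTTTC
Apln upstream, chrX:48034854-48035103, minus strand: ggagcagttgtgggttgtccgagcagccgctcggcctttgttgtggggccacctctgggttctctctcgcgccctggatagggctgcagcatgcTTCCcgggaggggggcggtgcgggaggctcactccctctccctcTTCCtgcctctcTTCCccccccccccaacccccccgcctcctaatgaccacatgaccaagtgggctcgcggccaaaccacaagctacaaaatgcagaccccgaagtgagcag
Kdr upstream, chr5:75978456-75978705, minus strand: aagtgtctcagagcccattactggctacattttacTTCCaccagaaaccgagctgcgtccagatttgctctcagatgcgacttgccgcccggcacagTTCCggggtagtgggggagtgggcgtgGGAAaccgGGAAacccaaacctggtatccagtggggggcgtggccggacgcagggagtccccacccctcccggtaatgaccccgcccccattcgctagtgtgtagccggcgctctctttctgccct
Flt1 upstream, chr5:147726012-147726261, minus strand: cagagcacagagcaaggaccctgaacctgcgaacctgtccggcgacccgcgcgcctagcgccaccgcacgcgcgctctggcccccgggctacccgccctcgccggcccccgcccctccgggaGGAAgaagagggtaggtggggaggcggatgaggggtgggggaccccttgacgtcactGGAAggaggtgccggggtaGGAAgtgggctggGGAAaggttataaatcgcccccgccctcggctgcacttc

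The upstream table held 7 of the 10 genes and did not include Aplnr, Angpt1 or Angpt2. GGAA on either strand occurred 3 times upstream of Apln and 4 times each upstream of Kdr and Flt1. At least 1 match stood in 93.4% of all 32851 upstream windows of this length, with a median of 3 matches. The core of the hypoxia response element, ACGTG on either strand, was found in 16.6% of all windows and in none of the printed ones. Among the other windows of these genes, ACGTG had 1 match upstream of the downstream start of Vegfa (chr17:46025164-46025413). These matches are letters in a window and do not show that a factor was bound.

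Of the 10 genes, 1 fell and 1 rose in sensitive hearts. Apln fell and Angpt1 rose at an adjusted p under 0.05 in edgeR, where 1.44% of all genes tested passed in either direction, 0.659% lower and 0.780% higher. The genotypes did not overlap in 5 of the 10 genes, Apln, Kdr, Angpt1, Vegfb and Angpt2, where 20.0% of all genes tested had no overlap. In all, 8 of the 10 log2 fold changes were below 0, with a median of -0.12, beside a median of -0.01 and 51.6% below 0 over all genes tested. In DESeq2, Apln and Angpt1 also passed, where 3.56% of genes with an adjusted p did so. Since these genes were chosen with this comparison known, these counts describe the list only. In whole hearts, fewer cells of a type and less RNA per cell cannot be told apart.

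**Figure D1:**
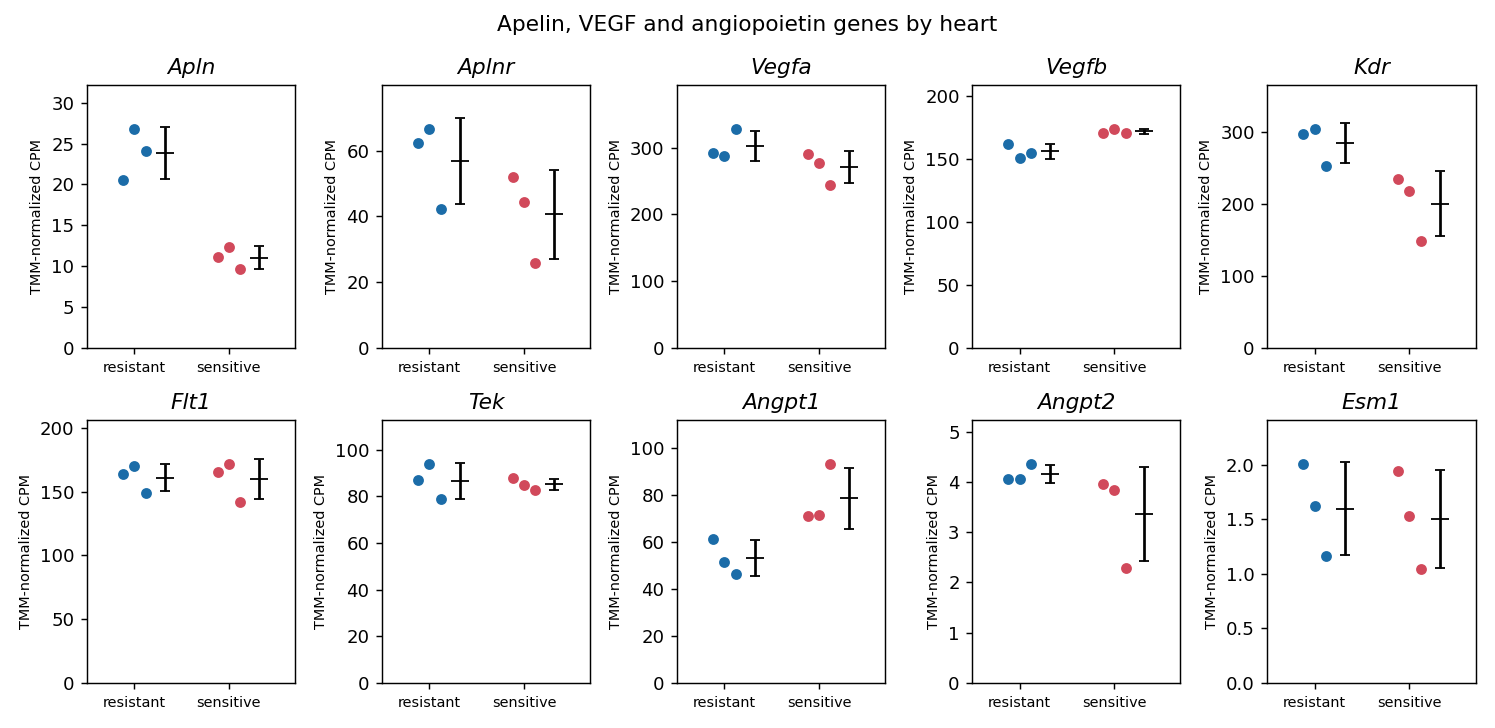
TMM-normalized CPM (y axes, from 0) of the 10 genes in the 3 resistant (blue) and 3 sensitive (red) hearts, with the mean ± SD beside each group. Apln was lower in every sensitive heart and Angpt1 higher in every sensitive heart, while Flt1 and Tek overlapped between the genotypes.

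Apln, the apelin gene on chromosome X of GRCm38 from 48025146 to 48034853, showed the largest difference of the list. It had 20.5, 26.8 and 24.1 CPM in resistant 1 to 3, from 429 to 560 reads, and 11.1, 12.4 and 9.65 CPM in sensitive 1 to 3, from 186 to 236 reads. Every sensitive heart lay below every resistant heart, by more than the spread within either genotype. The log2 fold change was -1.11 (standard error 0.13, 95% interval -1.38 to -0.83, edgeR adjusted p = 0.000626), or 0.465-fold, and Apln ranked 10th by p among all genes tested. Leaving out any 1 heart kept Apln past the threshold in edgeR, with log2 fold changes from -1.20 to -1.01.

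The apelin receptor gene Aplnr, on chromosome 2 from 85136225 to 85139923, varied more from heart to heart. It had 62.2, 66.6 and 42.1 CPM in resistant and 51.9, 44.4 and 25.7 CPM in sensitive hearts. Resistant 3 lay among the sensitive hearts, so the genotypes overlapped, and sensitive 3 was the lowest of all. The log2 fold change was -0.49 (standard error 0.20, 95% interval -0.91 to -0.06, edgeR adjusted p = 0.274), and -0.24 without sensitive 3. Per kb of gene length, the receptor was 2.06 ± 0.551 times the ligand in resistant and 3.10 ± 0.863 times in sensitive hearts (SD, n = 3), with overlap.

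Among the partners of apelin, none of 6 genes tested in edgeR passed the threshold, and Arrb1 and Furin had an unadjusted p under 0.05. In DESeq2 none of the 6 passed either. The smallest p was that of Arrb1, a β-arrestin gene involved in receptor desensitization, with 37.4, 43.1 and 33.4 CPM in resistant and 32.1, 29.7 and 28.2 CPM in sensitive hearts. Its groups did not overlap, with a log2 fold change of -0.34 (standard error 0.10, edgeR adjusted p = 0.129). Arrb1 passed in edgeR when no filter was used (adjusted p = 0.0369). Furin, a protease gene named after its values were seen, had a log2 fold change of 0.24 (edgeR adjusted p = 0.129). Apela, the gene of the other APJ ligand and named here after its values were seen, was not tested, with at most 2 reads in any heart.

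Per kb, the VEGF ligands were the most abundant of the 10 genes. Vegfb, which was highest in both genotypes and lies on chromosome 19 from 6982473 to 6987651, had 162, 151 and 155 CPM in resistant and 171, 174 and 171 CPM in sensitive hearts. All sensitive hearts stood slightly above all resistant hearts, and the log2 fold change of 0.14 did not pass the threshold (standard error 0.07, 95% interval 0.00 to 0.28, edgeR adjusted p = 0.336). Vegfa, on chromosome 17 from 46016993 to 46032369, had 292, 287 and 328 CPM in resistant and 291, 277 and 244 CPM in sensitive hearts. Its genotypes overlapped, and its log2 fold change was -0.16 (standard error 0.08, 95% interval -0.33 to 0.01, edgeR adjusted p = 0.382). The ratio of Vegfa to Vegfb per kb was 0.677, 0.712 and 0.791 in resistant and 0.636, 0.595 and 0.535 in sensitive hearts, without overlap.

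The main VEGF-A receptor gene, Kdr, and its counterpart Flt1 differed in their pattern. Kdr, on chromosome 5 from 75932827 to 75978458, had 297, 304 and 252 CPM in resistant and 234, 218 and 149 CPM in sensitive hearts. The genotypes did not overlap, and sensitive 3 was the lowest. Its log2 fold change of -0.50 missed the threshold (standard error 0.13, 95% interval -0.78 to -0.23, edgeR adjusted p = 0.0694). Without sensitive 1 it was -0.63 and passed (edgeR adjusted p = 0.0449), and without sensitive 3 it was -0.33 (edgeR adjusted p = 0.128). With all hearts, the adjusted p of Kdr was 0.181 in DESeq2 and 0.31 with edgeR's robust prior.

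Flt1, on the same chromosome from 147561604 to 147726011, had 164, 170 and 149 CPM in resistant and 165, 172 and 142 CPM in sensitive hearts. These groups overlapped throughout, with a log2 fold change of -0.01 (standard error 0.08, 95% interval -0.19 to 0.16, edgeR adjusted p = 0.963). Within a heart, Kdr was 2.71, 2.68 and 2.53 times Flt1 per kb in resistant hearts, and 2.12, 1.90 and 1.57 times in sensitive hearts. Every sensitive heart was thus below every resistant heart in this ratio, which does not depend on library scaling, with means of 2.64 ± 0.0972 and 1.86 ± 0.276 (SD, n = 3). The log2 difference of these means lay between -0.60 and -0.39 when 1 heart was left out. Kdr and Flt1 had the same number of GGAA matches in the upstream sequences printed above. At least 1 such match stood in 93.4% of all windows, and any relation of these matches to the levels was not tested.

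**Figure D2:**
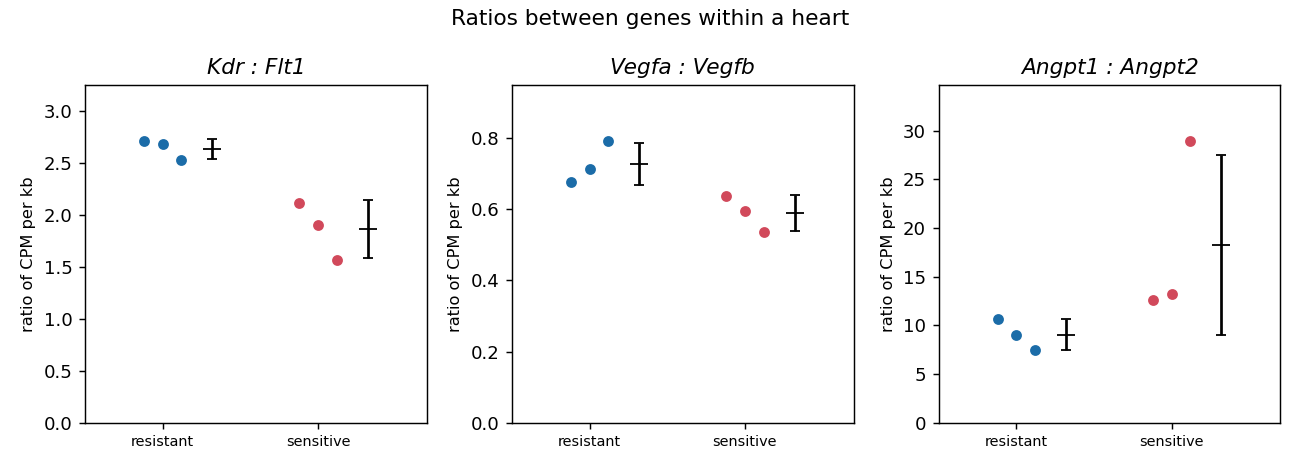
Ratios of CPM per kb within each heart (y axes, from 0) for Kdr to Flt1, Vegfa to Vegfb and Angpt1 to Angpt2, in resistant (blue) and sensitive (red) hearts, with the mean ± SD beside each group. Each of these ratios differed between the genotypes without overlap, with the first and the second lower and the third higher in sensitive hearts. Of the other ratios computed, Kdr to Tek did not overlap, whereas Aplnr to Apln and Vegfa to Kdr did. Among single genes tested, 20.0% had no overlap, and the share over other gene pairs was not computed.

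Of 13 partner genes of VEGF signaling that were tested, 2 fell and none rose in edgeR. Over all genes tested, 0.659% fell and 0.780% rose. Both partner genes that fell were neuropilins, co-receptors that bind VEGF and semaphorins, and in DESeq2 these 2 alone passed. Nrp2 had 70.7, 89.7 and 74.8 CPM in resistant and 52.7, 61.3 and 46.7 CPM in sensitive hearts, without overlap. Its log2 fold change was -0.55 (standard error 0.11, edgeR adjusted p = 0.0205). Without resistant 2, sensitive 1 or sensitive 3, the adjusted p in edgeR was 0.0721, 0.0643 and 0.0667.

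Nrp1, which pairs with VEGF receptor 2, had 175, 229 and 173 CPM in resistant and 148, 144 and 125 CPM in sensitive hearts. The groups did not overlap, and resistant 2 was the highest. Its log2 fold change was -0.47 (standard error 0.10, edgeR adjusted p = 0.0323). It passed without resistant 3 (edgeR adjusted p = 0.0283), and in the other 5 fits that left out 1 heart the adjusted p was 0.0502 without resistant 1, 0.10 without resistant 2, and 0.0599, 0.0831 and 0.120 without sensitive 1, 2 and 3. The median log2 fold change of the 13 genes was -0.06, and 11 of them were below 0.

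Angpt1, the ligand that activates Tie2, rose in sensitive hearts. It lies on chromosome 15 from 42424723 to 42676977 and had 61.3, 51.5 and 46.1 CPM in resistant and 70.7, 71.3 and 93.2 CPM in sensitive hearts. Each sensitive heart was above each resistant heart, and sensitive 3 was the highest. On the log2 scale the rise was 0.57 (standard error 0.12, 95% interval 0.32 to 0.81, edgeR adjusted p = 0.0279), or 1.48-fold. It was 0.55, 0.48 and 0.42 without resistant 2, resistant 3 or sensitive 3, and the adjusted p in edgeR was then 0.0725, 0.0754 and 0.0863. edgeR's robust prior gave an adjusted p of 0.0615.

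An antisense gene, Gm17473, overlaps Angpt1 on the other strand. It had 25, 17 and 12 reads in resistant and 26, 33 and 47 reads in sensitive hearts, against 917 to 1284 and 1355 to 1796 reads of Angpt1. Whether the counting used strand is not given in the sources used here, so reads in the overlap cannot be assigned to one gene. Gm17473, named for this overlap, had a log2 fold change of 1.06 (edgeR adjusted p = 0.232).

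Angpt2, the context-dependent antagonist of Tie2, was expressed far below Angpt1. On chromosome 8 from 18690263 to 18741562, it had 4.06, 4.06 and 4.37 CPM in resistant and 3.97, 3.84 and 2.28 CPM in sensitive hearts, from 44 to 87 reads. The groups did not overlap, but 2 of the sensitive hearts stood just under the resistant ones and sensitive 3 lay well below. The log2 fold change was -0.31 (standard error 0.25, 95% interval -0.83 to 0.22, edgeR adjusted p = 0.616), and -0.09 without sensitive 3. Angpt2 lies within Mcph1, a gene on the other strand with 118, 134 and 147 reads in resistant and 151, 148 and 197 reads in sensitive hearts. Mcph1 was thus highest in sensitive 3, where Angpt2 was lowest (Mcph1 log2 fold change 0.39, edgeR adjusted p = 0.323). As for Angpt1, reads in the overlap cannot be assigned to either gene.

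The ratio of Angpt1 to Angpt2 per kb was 10.7, 8.99 and 7.47 in resistant and 12.6, 13.2 and 28.9 in sensitive hearts. It did not overlap between the genotypes, and sensitive 3 stood apart. The limit from overlapping genes on the other strand holds for both parts of this ratio. The log2 difference of the group means was 1.01 with all hearts and 0.51 without sensitive 3.

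Their shared receptor gene, Tek, hardly differed. On chromosome 4 from 94739289 to 94874976, it had 86.9, 94.1 and 78.9 CPM in resistant and 87.7, 85.1 and 82.6 CPM in sensitive hearts, all sensitive hearts lying within the resistant range. Its log2 fold change was -0.03 (standard error 0.08, 95% interval -0.19 to 0.14, edgeR adjusted p = 0.916). Kdr, its fellow endothelial receptor gene, was 1.71 ± 0.0632 times Tek per kb in resistant and 1.23 ± 0.245 times in sensitive hearts (SD, n = 3), without overlap.

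None of the 6 angiopoietin partner genes tested in edgeR passed, 1 had an unadjusted p under 0.05, and in DESeq2 none passed. That gene was Svep1, which encodes a large extracellular matrix protein, with 18.5, 21.8 and 19.2 CPM in resistant and 17, 18.1 and 13.3 CPM in sensitive hearts. These did not overlap, and the log2 fold change was -0.30 (standard error 0.13, edgeR adjusted p = 0.290). Across all 25 partner genes of the apelin, VEGF and angiopoietin systems, the median was -0.04, with 18 genes below 0.

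Esm1, which encodes endocan and is known as a VEGF-responsive gene of sprouting endothelium, was the lowest of the list. On chromosome 13 from 113209659 to 113218098, it had 2.01, 1.62 and 1.16 CPM in resistant and 1.94, 1.53 and 1.04 CPM in sensitive hearts, from 20 to 42 reads. The groups overlapped nearly completely, with a log2 fold change of -0.09 (standard error 0.37, edgeR adjusted p = 0.942). At this depth the 95% interval, -0.87 to 0.69, spans both falls and rises.

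**Figure D3:**
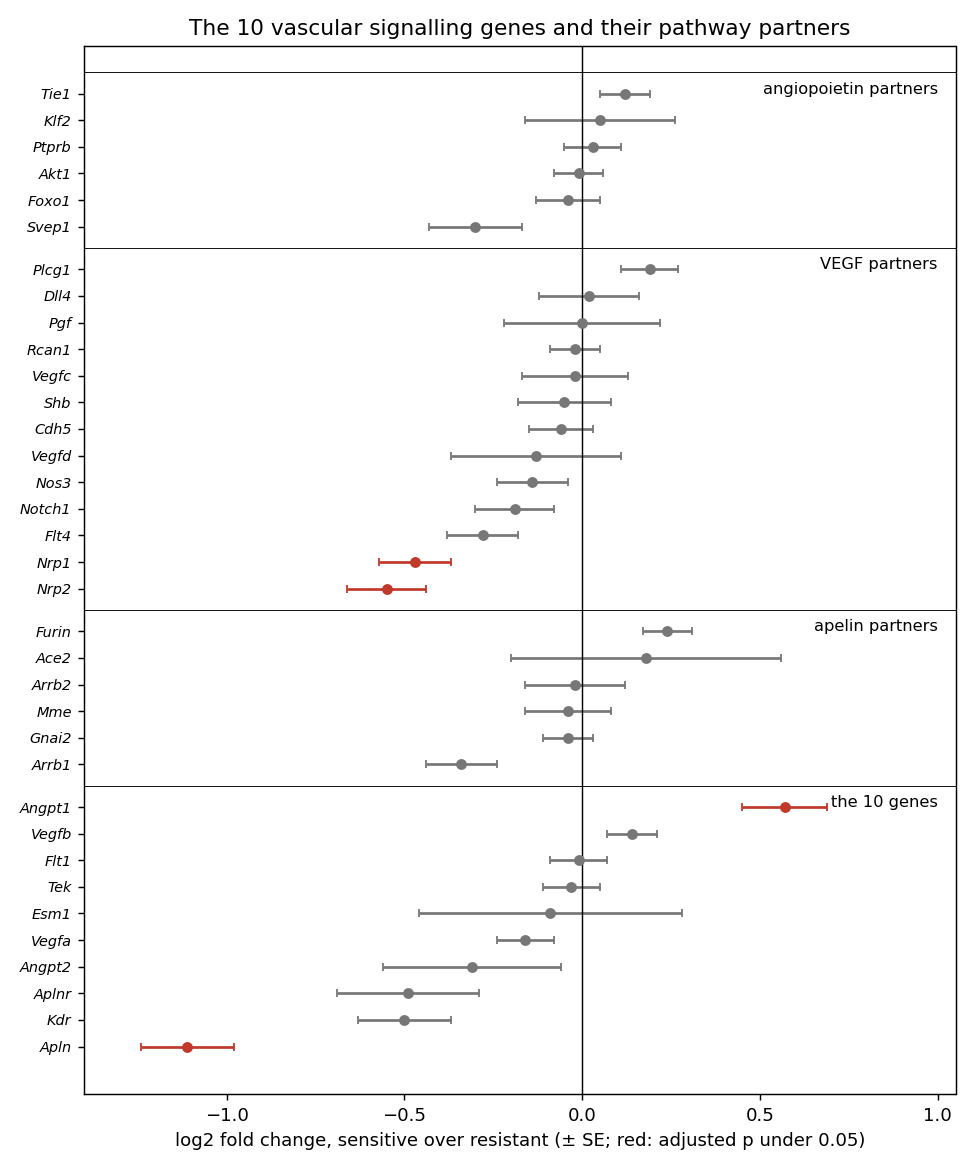
Log2 fold change of sensitive over resistant hearts (x axis, ± standard error from edgeR) of the 10 genes and of the partner genes of each system, with genes at an adjusted p under 0.05 in red. Apln, Nrp1 and Nrp2 fell, Angpt1 rose, and the other genes did not pass the threshold.

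Levels were compared between genes per length. The length was the deposited gene length, which need not be that of the transcripts present, so the order between genes is approximate. The same holds for the size of the ratios per kb above, but not for their difference between the genotypes, in which the lengths cancel. In resistant hearts the order, by CPM per kb of gene length, was Vegfb at 97.2 ± 3.38, Vegfa at 70.6 ± 5.24, Kdr at 31.5 ± 3.15 and Tek at 18.4 ± 1.62 (SD, n = 3). Aplnr followed at 15.4 ± 3.54, Flt1 at 11.9 ± 0.792, Angpt1 at 10.2 ± 1.48 and Apln at 7.55 ± 0.999, and the lowest were Angpt2 at 1.13 ± 0.0487 and Esm1 at 0.761 ± 0.203 (SD, n = 3). Tek and Aplnr, Aplnr and Flt1, and Flt1 and Angpt1 overlapped between hearts, so these neighbors cannot be ordered.

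In sensitive hearts Vegfb and Vegfa stayed highest, at 107 ± 1.12 and 63.1 ± 5.52 CPM per kb, with Kdr at 22.2 ± 4.98 and Tek at 18.1 ± 0.536, whose ranges overlapped (SD, n = 3). Angpt1, at 15.1 ± 2.46 CPM per kb, stood above Flt1 at 11.8 ± 1.15 without overlap, unlike in resistant hearts. Aplnr was at 11.0 ± 3.65 and overlapped Flt1, and Apln at 3.51 ± 0.439 lay below them (SD, n = 3). Angpt2 and Esm1 were lowest, at 0.912 ± 0.255 and 0.715 ± 0.215, and overlapped each other.

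**Figure D4:**
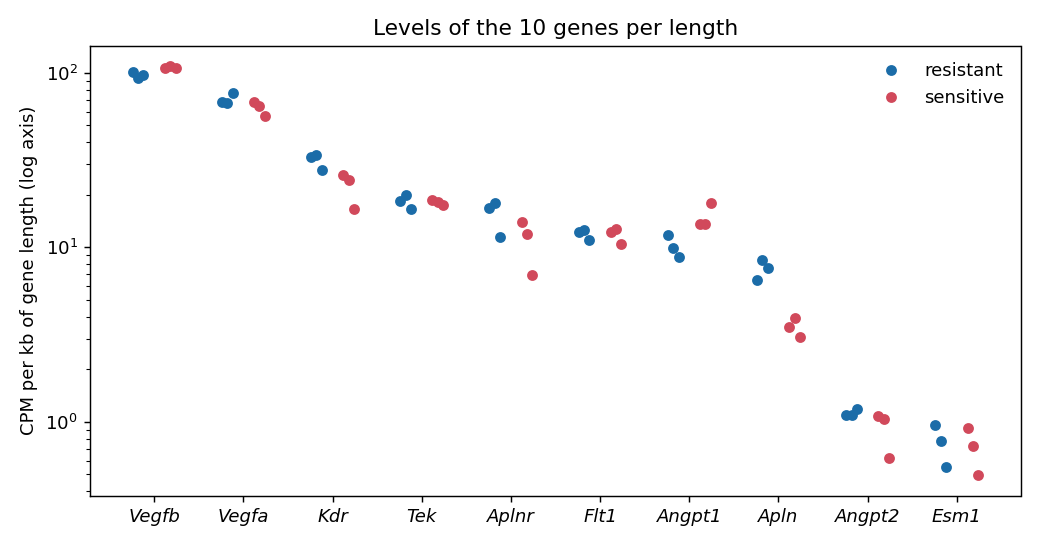
CPM per kb of gene length (y axis, logarithmic) of the 10 genes in each resistant (blue) and sensitive (red) heart, ordered by the resistant mean. Levels ran from Vegfb, with a mean of 97.2 in resistant hearts, down to Esm1, with 0.761.

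The hearts did not contribute equally. Sensitive 3 had the lowest CPM of the 6 hearts in 7 of the 10 genes and the highest in 1, Angpt1. Over all genes tested it was the lowest heart in 22.6% and the highest in 21.7%. Its summed pan-endothelial markers were also the lowest, at 1510 CPM, against 1560 to 1810 CPM in resistant hearts and 1730 and 1690 CPM in sensitive 1 and 2.

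The 10 genes were also set against endothelial content. The pan-endothelial list had 14 of 20 genes below 0, a median log2 fold change of -0.06, no gene past the threshold in edgeR or in DESeq2, an unadjusted p under 0.05 for Sox18, Emcn, Cd34 and Icam2 (the last 3 named after their values were seen), and overlapping sums of 1560 to 1810 and 1510 to 1730 CPM. Pecam1 had a log2 fold change of 0.00 and Cdh5, which encodes VE-cadherin, -0.06 (edgeR adjusted p = 0.996 and 0.815). These 4 genes are 4 of 20, beside 2150 of 14866 with such a p over all genes tested. The smallest p was that of the transcription factor gene Sox18, with a log2 fold change of -0.40 (standard error 0.11, edgeR adjusted p = 0.0886). Without a filter Sox18 passed in edgeR (adjusted p = 0.0308).

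Per 1000 CPM of these summed markers, Apln had 12, 14.8 and 15.5 CPM in resistant and 6.41, 7.33 and 6.40 CPM in sensitive hearts. Every sensitive heart was below every resistant heart on this scale, with a log2 ratio of means of -1.07. The summed markers themselves differed little between the genotypes, so this scaling could move a fold change only slightly. It is no test of endothelial content, and it does not show which cells a transcript came from. Kdr had 174, 168 and 162 against 136, 129 and 99.1 CPM per 1000, and Angpt1 had 35.9, 28.5 and 29.6 against 41.0, 42.1 and 61.8. Apln, Kdr and Angpt1 did not overlap between the genotypes on this scale, whereas Vegfb and Angpt2 overlapped after the scaling. Flt1 and Tek were nearly constant on this scale, at 95.3 ± 1.27 and 97.1 ± 3.83 for Flt1 and 51.2 ± 0.721 and 52.0 ± 2.47 for Tek in resistant and sensitive hearts (SD, n = 3).

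The genes of other vascular states went in different directions. Among 17 genes of tip cells and sprouting, 3 fell and none rose, with 14 below 0 and a median of -0.25. The shares over all genes tested in edgeR were 0.659% falling and 0.780% rising. In DESeq2 Lamb1, named after its values were seen, passed as well (adjusted p = 0.00973). Plxnd1, an endothelial semaphorin receptor gene, had 164, 176 and 167 CPM in resistant and 127, 133 and 105 CPM in sensitive hearts. All sensitive hearts were lower, with a log2 fold change of -0.48 (standard error 0.08, edgeR adjusted p = 0.0125), and the call held whichever heart was left out.

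Pdgfb, whose product recruits pericytes to vessels, had 49.5, 50.1 and 42.3 CPM in resistant and 36.4, 36.3 and 28.8 CPM in sensitive hearts (log2 fold change -0.48, standard error 0.10, edgeR adjusted p = 0.0318). Mcam, a vascular adhesion molecule gene, had 45.0, 48.3 and 44.1 against 35.3, 35.5 and 34.1 CPM (log2 fold change -0.39, standard error 0.08, edgeR adjusted p = 0.0276). Neither overlapped between the genotypes. When 1 heart was left out, both passed only without resistant 3, and in the other 5 fits the adjusted p in edgeR was 0.0504 to 0.123 for Pdgfb and 0.0716 to 0.104 for Mcam.

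Heart capillary markers stood on the other side, with 2 of 10 genes rising, none falling, 8 above 0 and a median of 0.20. Across all genes tested in edgeR, 0.780% rose and 0.659% fell. Cd36 and Lpl, named after their values were seen, passed as well in DESeq2 (adjusted p = 0.00894 and 0.049). Whole-heart counts do not show which cells the transcripts of this list came from. Car4, a carbonic anhydrase on the surface of capillary endothelium, had 16.1, 17.2 and 15.2 CPM in resistant and 31.5, 33.5 and 31.3 CPM in sensitive hearts. That is about as large a rise as the fall of Apln, with a log2 fold change of 0.99 (standard error 0.09, edgeR adjusted p = 0.000128), and it held whichever heart was left out. Fabp4, which encodes a fatty acid binding protein of capillaries and adipocytes, had 374, 426 and 340 against 528, 470 and 493 CPM, without overlap (log2 fold change 0.39, standard error 0.09, edgeR adjusted p = 0.0358). Without 1 heart it passed only without resistant 2, with an adjusted p of 0.0602 to 0.152 in the other 5 edgeR fits.

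Some genes, Nrp2 and Cd34 among them, stand in more than 1 list. Of 10 arterial and venous markers, Sema3g, a semaphorin gene of arterial endothelium, rose and the venous and lymphatic co-receptor gene Nrp2 fell. In this list 7 genes were below 0, with a median of -0.07, and 0.780% of all genes tested rose and 0.659% fell. The other arterial markers went both ways, with Sox17 and Efnb2 at 0.43 and 0.17, and Bmx, Gja5, Gja4 and Hey1 at -0.33, -0.09, -0.09 and -0.05. Venous Ephb4 and Nr2f2 were at -0.15 and -0.02. None of these genes, named after their values were seen, passed in edgeR or DESeq2. Sema3g had 24.7, 18.9 and 24.0 CPM in resistant and 32.8, 33.9 and 29.0 CPM in sensitive hearts, without overlap. Its log2 fold change was 0.50 (standard error 0.11, edgeR adjusted p = 0.0375), and it passed only without sensitive 3 among the fits that left out 1 heart, with an adjusted p of 0.0530 to 0.127 in the others.

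**Figure D5:**
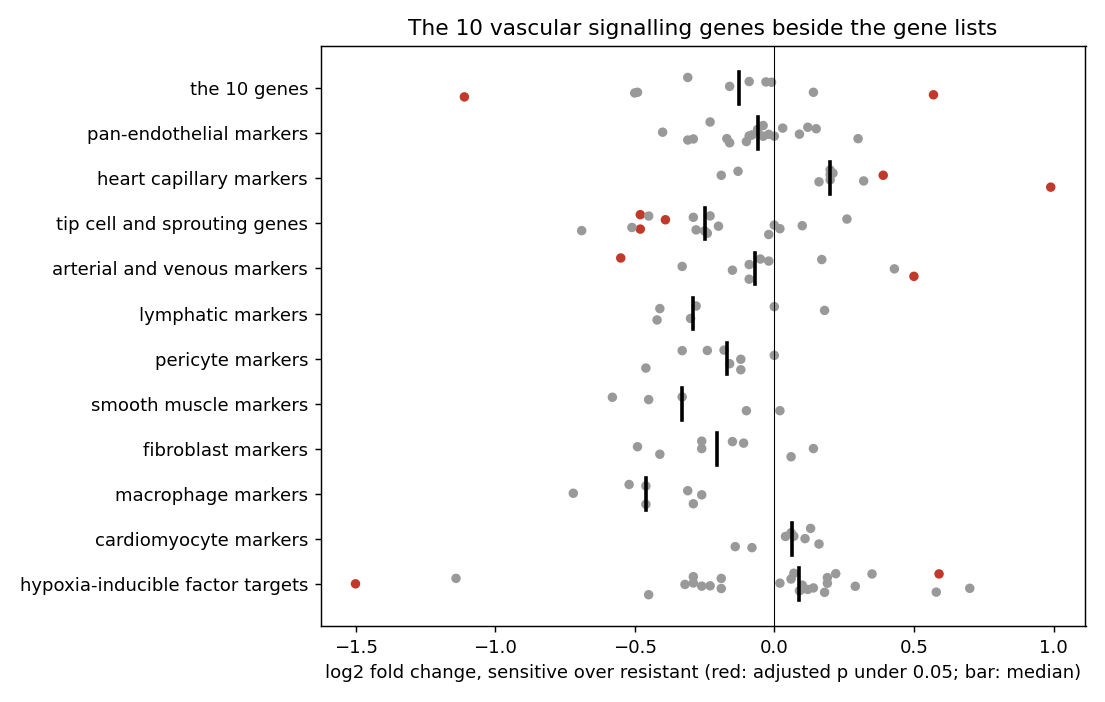
Log2 fold change of sensitive over resistant hearts (x axis) for each tested gene of the 10 vascular signalling genes and of 11 other lists, with genes at an adjusted p under 0.05 in red and the median of each list as a black bar. The medians were -0.25 for tip cell and sprouting genes and 0.20 for heart capillary markers, on either side of the pan-endothelial median of -0.06.

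Markers of the other cells of the heart were also summed and compared between the genotypes. Pericyte markers were at or below 0 in all 8 genes, with a median of -0.17, and summed to 1360 to 1430 CPM in resistant and 1230 to 1380 CPM in sensitive hearts. Macrophage markers were below 0 in 7 of 7, with a median of -0.46 and overlapping sums of 306 to 480 and 273 to 331 CPM. Lymphatic markers were below 0 in 5 of 6 genes tested, with sums of 166 to 188 and 130 to 153 CPM that did not overlap. Prox1 made up most of this sum, and without it, a choice made after seeing the data, the sums overlapped at 60.1 to 75.7 and 55.3 to 63.6 CPM. The lymphatic chemokine gene Ccl21a, named after its values were seen, was at 0 in every heart. Fibroblast markers were below 0 in 6 of 8, with a median of -0.20 and sums of 1160 to 1360 and 1030 to 1200 CPM. Smooth muscle markers were below 0 in 4 of 5, with sums of 227 to 291 and 228 to 259 CPM, and cardiomyocyte markers above 0 in 6 of 8, with sums of 57000 to 69700 and 62600 to 67400 CPM.

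No gene of these 6 lists passed in edgeR, and 14 of 42 had an unadjusted p under 0.05, beside 2150 of 14866 over all genes tested. Under other edgeR settings Col3a1 and Mrc1 passed with upper-quartile factors (adjusted p = 0.0445 and 0.0459), with at least 10 counts in every heart (0.0483 and 0.0488) and without a filter, and Col3a1 without mitochondrial and globin genes (0.0459). Without a filter Prox1, Cspg4 and Acta2 passed too. In DESeq2, 5 of the 42 passed, Col1a1, Prox1, Mrc1, C1qa and Acta2, of which Col1a1 and C1qa are named after their values were seen. Among all genes with an adjusted p in DESeq2, 3.56% passed. The smallest p in each list was that of Cspg4, Mrc1, Prox1, Col3a1, Acta2 and Tnnt2, with log2 fold changes of -0.46, -0.52, -0.41, -0.49, -0.45 and 0.16 and edgeR adjusted p of 0.0969, 0.0549, 0.10, 0.0542, 0.118 and 0.410. The part of these cell types in the values of Apln, Kdr and Angpt1 was not tested.

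Apln and Vegfa are also known targets of hypoxia-inducible factors. A list of 27 other such targets held 10 genes below and 17 above 0, with a median of 0.09, 1 that fell and 1 that rose. For comparison, 0.659% of all genes tested in edgeR fell and 0.780% rose. Bnip3, named after its values were seen, passed as well in DESeq2 (adjusted p = 0.0243). Tfrc, the transferrin receptor gene, had 99.7, 155 and 102 CPM in resistant and 40.3, 46.5 and 39.8 CPM in sensitive hearts, all of them lower (log2 fold change -1.50, standard error 0.14, edgeR adjusted p = 0.000106).

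The machinery of these factors differed little, with no gene of 7 past the threshold in edgeR or DESeq2 and 1 with an unadjusted p under 0.05. That gene was Egln2, a prolyl hydroxylase gene, with a log2 fold change of 0.26 (standard error 0.08, edgeR adjusted p = 0.128).

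The genes whose pattern over the 6 hearts was most like that of Apln were Ret, Ip6k3, Ccnd1, Alas1 and Cd109, out of 12107 genes whose mean log2 CPM reached 1. The root mean square difference between their centered log2 CPM and that of Apln was 0.08, 0.08, 0.12, 0.13 and 0.15. Ret, a receptor tyrosine kinase gene, had 8.98, 10.6 and 9.85 CPM in resistant and 5.16, 5.10 and 4.05 CPM in sensitive hearts. These 5 were picked for their likeness to Apln in these hearts, so their difference between the genotypes restates that choice.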

How the data were processed

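RNA-seq of 6 whole hearts, 3 per genotype, was grouped by the genotype label. Quality control, mapping and counting were done by the sequencing company. The submitters' processing notes name fastp, STAR, featureCounts and the build mm10, without versions or a strand setting. The authors deposited raw counts per gene, with gene length and GRCm38 coordinates, and these were used as deposited. The coordinates of all 10 genes were identical in GENCODE M21. A table of the authors' own DESeq2 comparison (log2 fold changes and p-values) was not used.

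Counts were fitted in R 4.3.3 with edgeR 4.0.16 (TMM, filterByExpr with a minimum count of 10 and a minimum total of 15, quasi-likelihood test, Benjamini-Hochberg adjustment over all 14866 genes, threshold 0.05). The adjusted p-values in the text come from this fit across all genes. Standard errors are the log2 fold change divided by the root of F, and intervals are 95%. Log2 CPM used a prior count of 2. The fit was tested on simulated data. Depth was 19309312 to 20470065 counts per heart, so genes under about 1 CPM rest on few reads.

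The genes, the 15 other lists and the tests were chosen with earlier results of these data known. Genes were named as follows: all 10, every listed gene past the threshold, otherwise the gene with the smallest p of its list, Pecam1, Cdh5, Myh6, Tnnt2 and the 5 genes most like Apln. A few genes that the rule names are not reported here. Genes outside this rule are marked in the text or overlap one of the 10. Alternatives were DESeq2 1.42.0, RLE and upper-quartile factors, other filters, a robust prior, leaving out mitochondrial and globin genes, an adjusted p under 0.1, scaling to endothelial markers and leaving out each heart. Labels do not say that hearts of one genotype shared a litter or batch. Figures were drawn with matplotlib 3.10.9.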

Additional observations from a re-analysis of the deposited data

How the results depend on the processing

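Apln fell in every alternative tried, and no called gene of the 10 changed sign. DESeq2 called 400 genes in all, and 12 lower and 7 higher genes of the other lists, where edgeR called 214, 6 and 4. Without a filter the counts were 618 genes in all, 3 lower genes of the 10 (Aplnr at -0.48 and Kdr at -0.50 joined Apln), and 22 lower and 9 higher genes of the other lists. In that fit of 28183 genes the edgeR adjusted p was 3.35e-08 for Kdr, against 0.0694 in the main fit. For Aplnr, whose genotypes overlapped, it was 3.31e-05 against 0.274. The fold changes hardly moved, so passing only without a filter, as given above for other genes too, is no added support. The robust prior left 0 of the 10 genes higher, as Angpt1 had an adjusted p of 0.0615. An adjusted p under 0.1 gave 402 genes in all, 2 lower genes of the 10 and 12 lower genes of the other lists. Leaving out each heart in turn gave 80 to 158 genes in all, 1 to 2 lower and 0 to 1 higher genes of the 10, and 2 to 9 lower and 1 to 3 higher genes of the other lists, where fewer samples entered each fit. The causes of the other shifts were not tested. Genes near 0 changed sign: scaled to endothelial markers, Flt1 was at 0.03 and Tek at 0.02, and Pecam1 was at -0.01 with upper-quartile factors and at 0 with at least 10 counts in every heart. With 1 heart left out, log2 fold changes ran from -0.06 to 0.07 for Flt1, -0.08 to 0.04 for Tek, -0.32 to 0.12 for Esm1, -0.05 to 0.07 for Pecam1, -0.11 to 0.04 for Cdh5 and -0.04 to 0.18 for Myh6. Leaving out hearts for the ratios was chosen after seeing the data. No paired analysis was possible because the labels carry no replicate numbers shared between the genotypes. The smallest p of an exact permutation test (two-sided) at 3 against 3 is 0.1, and depth limits Esm1 and Angpt2 most.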
